A study of Mus musculus with 3 samples.

Results

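The proteasome genes were read in RNA of sorted splenic B cells of mice with OVA-induced allergic rhinitis, with and without treatment by SJMHE1, a peptide from HSP60 of the worm Schistosoma japonicum. The genes were taken from the deposited table by name: every protein-coding gene whose symbol begins with Psma, Psmb, Psmc, Psmd, Psme or Psmg, other than those named as pseudogenes. This gave 49 of the 27088 genes of the table. Of these, 48 encode subunits, activators or assembly chaperones of the proteasome, and Psmc3ip was taken in by its name alone, since it encodes a meiotic recombination protein. Of the 46 genes that the table's annotation places in the KEGG proteasome pathway, 41 are members, and the others are Adrm1, Ifng, Pomp, Psmf1 and Sem1. Female BALB/c mice, 13 weeks old per the labels, formed the Control, PBS and SJMHE1 groups. Mice of the PBS and SJMHE1 groups received 10 μg OVA with 2 mg Al(OH)3 intraperitoneally on days 0, 7 and 14 and 100 μg OVA intranasally from day 21 to day 27 and from day 29 to day 35. They were injected with PBS or with 10 μg SJMHE1 on days 0, 14 and 28, and were killed on day 36. Only the peptide was given in incomplete Freund's adjuvant, so peptide and adjuvant cannot be told apart. Cells of 3 mice were pooled in each group, and each group is 1 library. The healthy Control mice were not analysed here.

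The proteasome degrades proteins that carry ubiquitin chains. Its 20S core is a stack of rings of alpha and beta subunits, and its 3 catalytic beta subunits, encoded by Psmb5, Psmb6 and Psmb7, are exchanged in lymphoid cells and under interferon for the immunoproteasome subunits encoded by Psmb8, Psmb9 and Psmb10. The 19S particle caps the core, binds and unfolds substrates with a ring of ATPases and removes ubiquitin, while other activators such as PA28, made of the products of Psme1 and Psme2, open the core without ubiquitin. Immunoproteasomes cut peptides for MHC class I presentation and are abundant in B cells.

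The design asks how the B cell library of SJMHE1-treated mice differed from that of PBS-treated mice. Proteasome genes stood at nearly the same level in both. The values are FPKM as deposited, which divide the counts of a gene by its length and by the size of the library. The difference is the log2 ratio of FPKM, SJMHE1 to PBS, and a small and a large threshold were set on it, at 0.32 and at 1 (2-fold) in either direction. Genes were compared if either library listed them at an FPKM of 1 or more and neither at 0, which left 47 of the 49 members and 12433 of all genes. Psma8, an alpha subunit of testis, had 17 counts in PBS and 8 in SJMHE1 (FPKM 0.11 and 0.05), and Psmb11, the beta subunit of thymic cortex, had 0 and 3 counts, no more than the 3 counts that a count of 0 allows. These 2 genes were listed but not compared. With 1 library per group no difference could be tested. The 95% intervals are exact Clopper-Pearson intervals for log2 ratios and exact Poisson intervals for FPKM levels. For the change of a ratio between genes they are exact conditional intervals of the counts. All cover counting error only and not the spread between mice. In a pool of cells, fewer cells of a type and less RNA per cell cannot be told apart.

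The libraries held 48267168 counts (PBS) and 51280237 counts (SJMHE1), and the members took 0.295% and 0.284% of them. The label of B cells was checked against 10 B cell markers, and 10 of 10 passed the filter, with a summed FPKM of 3096 and 3249 in the PBS and SJMHE1 libraries. Markers of other cells and of plasma cells were present too and differed between the libraries. The summed FPKM of 8 T cell markers was 52.5 in PBS and 31.3 in SJMHE1 (8 of 8 lower). Much of that sum was Lck (27.92 and 25.19, log2 ratio -0.15). The median log2 ratio of the 8 was -1.96, and 7 of 8 were past 2-fold, against 6% of all genes. The summed FPKM of 8 macrophage markers was 115 and 60.0 (4 of 8 lower), and of 6 plasma cell markers 559 and 459 (5 of 6 lower). That of 4 neutrophil markers was 290 and 393 (2 of 4 higher), and of 5 erythroid markers 117 and 152 (5 of 5 higher). Most of the macrophage sum was Lyz2 (88.79 and 37.4). The median log2 ratio of the 8 macrophage markers was 0.01, with 4 higher. Most of the neutrophil sum was S100a9 (196.02 and 266.48) and S100a8 (73.55 and 114.96), while Csf3r (16.24 and 8.37) and Ly6g (log2 ratio -0.22) were lower. Dendritic cell markers summed to 7.83 and 3.78 over all 6, of which 3 passed the filter. NK cell markers summed to 10.4 and 5.31 over all 4, of which 3 passed. None of these markers was at 0 in both libraries, and their part in the proteasome values was not tested.

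The 49 genes lie on 16 chromosomes, and only a few are neighbours. On chromosome 17 (GRCm38), Psmb9 (34181987 to 34187764, minus strand) overlaps the peptide transporter gene Tap1 on the opposite strand, and Psmb8 (34197721 to 34201454, plus strand) begins 9956 bases beyond its end. On chromosome 14, Psme1 (55578123 to 55581528) and Psme2 (55587441 to 55591113) are 5912 bases apart, and Psmb5 (54614119 to 54618022) and Psmb11 (54621433 to 54629556) 3410 bases. In all, 24 members overlap another gene, 19 of them one on the opposite strand, and whether reads were counted by strand is not given in the sources used here, so reads of such pairs may not be separated.

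Promoters are printed for 3 genes whose values are described further on: the constitutive catalytic subunit Psmb5, the PA28 subunit Psme1 and the ATPase Psmc1. Each is the window of GRCm38.p6 from 250 bases before to 50 bases after a start given by RefSeq, read along the gene. Motif letters are in capitals. That start need not be the edge of the gene as given above. The window of Psme1 begins inside the gene's span, and its marked element lies 9 to 18 bases after the RefSeq start. The capitals mark TGACNNNGC, the antioxidant response element bound by Nrf1 and Nrf2, in Psmb5 (chr14:54617946-54618245, minus strand), the reverse strand of GAAANNGAAA, the interferon response element, in Psme1 (chr14:55578244-55578543, plus strand), and CCAAT in Psmc1 (chr12:100109952-100110251, plus strand).
Psmb5: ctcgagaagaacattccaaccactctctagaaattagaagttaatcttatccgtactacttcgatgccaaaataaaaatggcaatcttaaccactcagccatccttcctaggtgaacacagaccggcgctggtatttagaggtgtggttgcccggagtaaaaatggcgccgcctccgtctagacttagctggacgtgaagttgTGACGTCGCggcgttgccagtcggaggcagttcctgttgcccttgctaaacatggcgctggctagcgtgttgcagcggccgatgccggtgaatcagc
Psme1: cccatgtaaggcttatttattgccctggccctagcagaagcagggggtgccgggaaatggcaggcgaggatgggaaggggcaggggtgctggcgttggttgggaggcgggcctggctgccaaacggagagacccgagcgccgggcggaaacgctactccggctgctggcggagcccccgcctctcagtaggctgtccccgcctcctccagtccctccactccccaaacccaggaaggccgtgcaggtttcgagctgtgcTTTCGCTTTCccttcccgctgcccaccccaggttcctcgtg
Psmc1: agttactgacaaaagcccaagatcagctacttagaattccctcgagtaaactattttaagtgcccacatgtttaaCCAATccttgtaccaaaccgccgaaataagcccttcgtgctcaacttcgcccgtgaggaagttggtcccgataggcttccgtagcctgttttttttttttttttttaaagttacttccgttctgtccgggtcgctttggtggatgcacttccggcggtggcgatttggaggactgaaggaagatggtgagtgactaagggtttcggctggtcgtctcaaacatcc

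Such windows were at hand for 41 of the 49 members, and both strands were searched. TGACNNNGC stood in 6 of 41 (14.6%: Psmb5, Psmb6, Psmc6, Psmd9, Psmd12 and Psme4), against 16.9% of 8225 other expressed genes. The interferon element stood in 5 of 41 (12.2%: Psmb3, Psmd4, Psmd9, Psme1 and Psmg4), against 3.85%, and CCAAT in 15 (36.6%), against 43.5%. A heat shock element of 3 units, GAANNTTCNNGAA, stood in 0 of 41 and in 0.535% of the other genes. The letters are a description and not bound sites, and their absence from a window says nothing of the factor.

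A second sequence matters for the values of the activators. Psme2b, a gene of a single exon on chromosome 11 (48945354 to 48946190, minus strand, GRCm38), is nearly the same as the coding sequence of Psme2 on chromosome 14 (minus strand), so reads of the pair are hard to separate. Over 717 coding bases the pair differs at 5 positions (99.3% identity), all at the third base of a codon. Counted from the A of the start codon, with the base of Psme2 first, they are C312T, A369G, C489T, C519T and C543T. The stretch from base 304 to base 543 holds all 5, in capitals.
Psme2: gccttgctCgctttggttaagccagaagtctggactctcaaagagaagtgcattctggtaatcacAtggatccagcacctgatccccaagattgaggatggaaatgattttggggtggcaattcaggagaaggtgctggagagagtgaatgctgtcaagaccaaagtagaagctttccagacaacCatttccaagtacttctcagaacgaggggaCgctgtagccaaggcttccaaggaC
Psme2b: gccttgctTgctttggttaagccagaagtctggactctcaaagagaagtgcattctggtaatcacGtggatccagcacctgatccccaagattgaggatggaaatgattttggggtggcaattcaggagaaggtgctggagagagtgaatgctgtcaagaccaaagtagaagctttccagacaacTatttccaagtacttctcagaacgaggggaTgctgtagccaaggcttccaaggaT

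**Figure D1:**
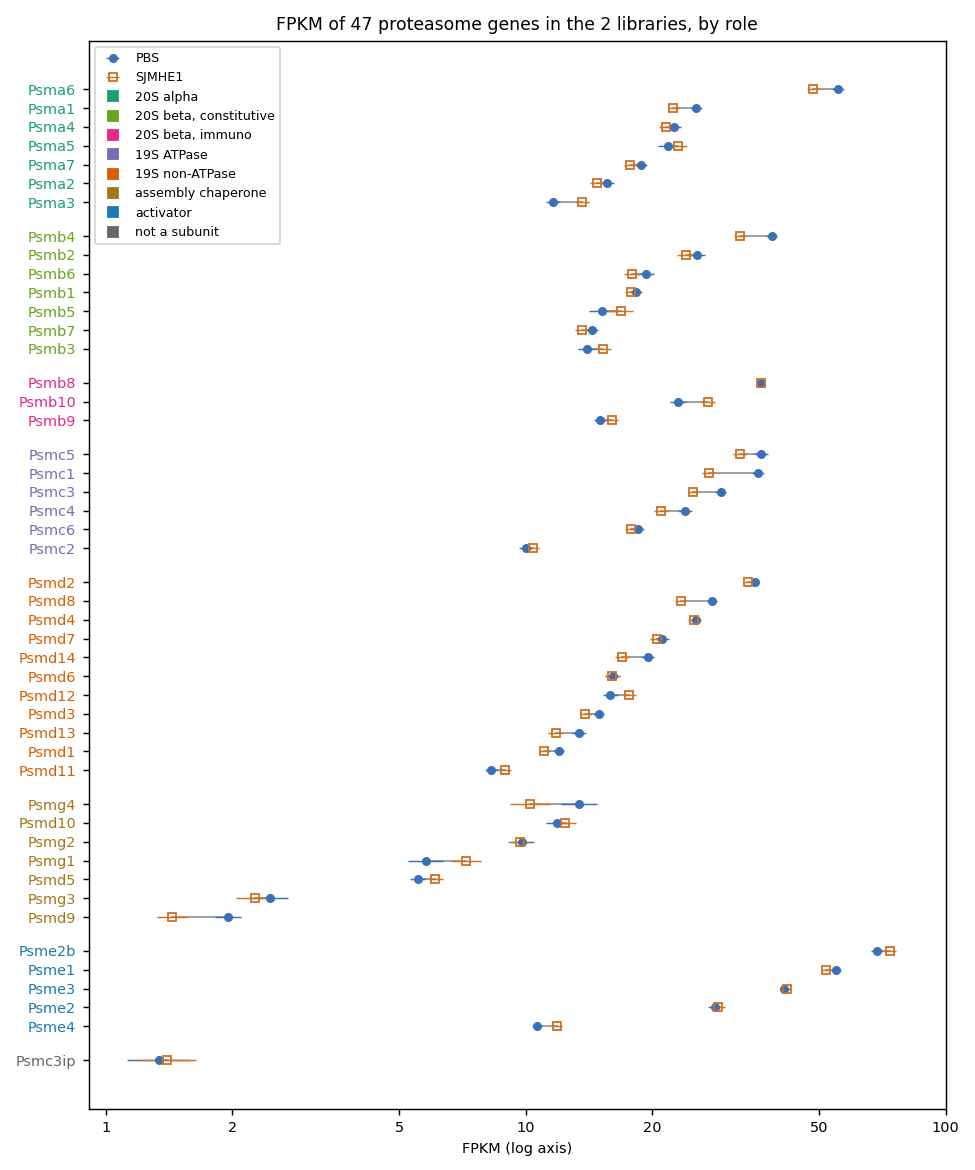
FPKM (log axis) of the 47 genes that passed the filter, by role, with a filled circle for the PBS library and an open square for the SJMHE1 library, and bars for the 95% counting interval. The symbols of a gene lie close together, and the genes keep nearly the same order in both libraries, from Psmc3ip at 1.34 and 1.40 to Psme2b at 68.70 and 73.76. The level of Psme2b rests on how its reads were split from Psme2.

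Levels differed between genes far more than between libraries. The FPKM of the 47 members spanned from 1.34 (Psmc3ip) to 68.70 (Psme2b) in PBS and from 1.40 to 73.76 in SJMHE1, and Pearson's r of the log2 levels between libraries was 0.990 over the 47 genes, which share libraries and are not independent. In PBS, 25 of the members were in the top 10% of the table, and in SJMHE1 27. Of 46 neighbouring pairs in the order of FPKM, 33 had overlapping counting intervals in PBS and 34 in SJMHE1, so most steps of the order are within counting error. The order from the top in PBS was Psme2b, Psma6 (55.37), Psme1 (54.95), Psme3 (41.33) and Psmb4 (38.60). The first place of Psme2b rests on how its reads were split from Psme2. At the bottom stood assembly chaperones, Psmd9 at 1.96, Psmg3 at 2.46, Psmd5 at 5.54 and Psmg1 at 5.79, above Psmc3ip alone. The 34 passing subunits of the 20S core and the 19S particle spanned 6.69-fold in PBS (8.28 for Psmd11 to 55.37 for Psma6) and 5.41-fold in SJMHE1 (8.94 to 48.33).

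This order depends on the length by which counts are divided. The deposited FPKM matches the combined length of all annotated exons of a gene, and 33 members have an annotated transcript with a retained intron, which lengthens it. That length was between equal to and 3.36 times the length of the principal coding transcript of GENCODE M21 (median 1.64), at least 2 times in 17 members, and highest for Psma7 (3.36), Psmg3 (3.28) and Psmb3 (3.00). Divided by the principal length, an alternative chosen after the data were seen, 12 members moved by 10 or more places in PBS. Psme1 then led with 109, followed by Psmb8 with 75.5, Psme2b with 68.7 and Psma6 with 65.6. The 34 core and 19S subunits then spanned 4.96-fold in PBS and 4.48-fold in SJMHE1.

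**Figure D2:**
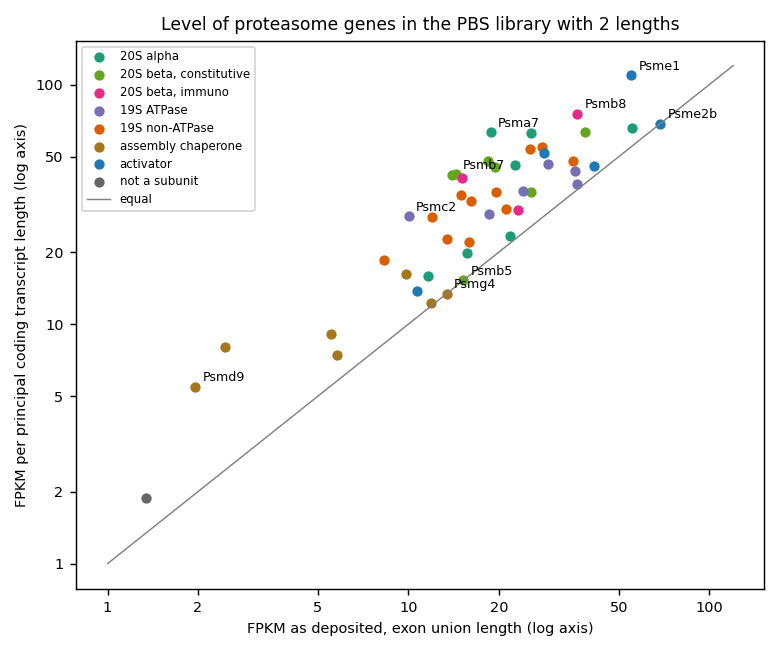
FPKM in the PBS library as deposited (horizontal, log axis) against the level per length of the principal coding transcript (vertical, log axis), with a point for each of the 47 genes coloured by role and a line where both are equal. Psmb5, Psmg4 and Psme2b lie on the line, and Psma7 lies 3.36-fold above it.

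The difference between libraries was small for the members as a set. Their median log2 ratio was -0.05, and that of all 12433 genes was -0.01. The ratios ran from -0.44 (Psmd9) to 0.32 (Psmg1), with an SD of 0.16 over members and 0.56 over all genes, or 0.36 over the 7352 genes that reached an FPKM of 5 in either library. No member was higher in SJMHE1 past the small threshold (0 of 47), whereas 13.3% of all genes were. Lower past it were 3 of 47, namely Psmd9, Psmc1 and Psmg4, against 16.5% of all genes. Past 2-fold in either direction were 0 of 47, against 6% of all genes. Among the genes that reached an FPKM of 5, 0 of 44 members were higher and 2 of 44 lower past the small threshold, where the background was 8.28% and 10.6%.

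The count of members above 0 was 17 of 47, against 47.7% of all genes, and 30 were below. This split turns with the scaling: after rescaling both libraries to equal FPKM sums, 30 of 47 members and 60.5% of all genes were above 0, and the median of the members was 0.03. The 13 members that crossed 0 in this way were Psma2, Psma4, Psma7, Psmb1, Psmb7, Psmb8, Psmc6, Psmd2, Psmd4, Psmd6, Psmd7, Psme1 and Psmg2. The counting interval lay above 0 for 11 of 47 members, with 31% of all genes, and below 0 for 19 of 47, with 34.5% of all genes. It held 0 for 17. Without Psmc3ip the median was -0.05, and over the 34 subunits of the core and the 19S particle it was -0.07.

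**Figure D3:**
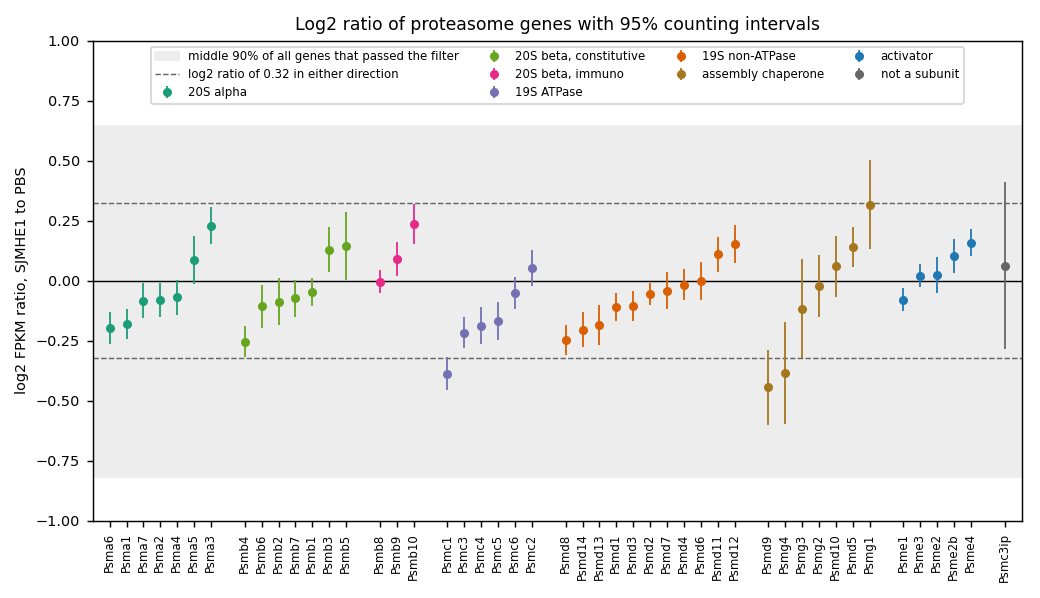
Log2 ratio of FPKM, SJMHE1 to PBS, of the 47 genes, ordered within each role, with 95% counting intervals. Dashed lines mark 0.32 in either direction and the grey band holds the middle 90% of all 12433 genes. All points lie inside the band, and only Psmc1, Psmd9 and Psmg4 lie beyond a dashed line.

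The alpha subunits form the outer rings of the 20S core and gate its entrance. Of the 7 that passed, 2 were above and 5 below 0, with a median of -0.08 that became 0.00 when FPKM sums were made equal. Psma6 had an FPKM of 55.37 in PBS and 48.33 in SJMHE1 (log2 ratio -0.20, interval -0.26 to -0.13). Psma1 had 25.50 and 22.49 (-0.18, -0.24 to -0.12). These were the lowest ratios of the ring, and both intervals were below 0. At the other end, Psma3 had 11.63 and 13.64 (0.23, 0.15 to 0.31), and Psma5 21.78 and 23.11 (0.09, -0.01 to 0.18). For both of these genes part of the sequence is also found in a pseudogene. In Psma3, 22% of its windows of 50 bases are also in other genes, chiefly Gm13835, which was listed at 31.93 and 34.91. The summed counts of Psma3 and Gm13835, each divided by the library's total, gave a log2 ratio of 0.19 (0.13 to 0.26). In Psma5 the share of such windows was 54.5%, most of them in Gm8394, which was not analysed here, so no sum could be formed. Psma2, Psma4 and Psma7 lay between -0.08 and -0.07.

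The constitutive beta subunits form the inner rings. Of 7, 2 were above and 5 below 0, with a median of -0.07, or 0.01 with equal FPKM sums. Psmb4, a beta subunit without catalytic activity, stood highest of them and had the lowest ratio, with an FPKM of 38.60 in PBS and 32.36 in SJMHE1 (-0.25, -0.32 to -0.19). Psmb6, the caspase-like catalytic subunit, had 19.34 and 17.96 (-0.11, -0.20 to -0.02). The other members of the ring differed by less or in the other direction. Psmb5, the chymotrypsin-like catalytic subunit, had 15.24 and 16.83 (0.14, 0.0012 to 0.29), from 753 and 880 counts. Psmb3, which is not catalytic, had 14.00 and 15.32 (0.13, 0.04 to 0.22). Psmb7, the trypsin-like catalytic subunit, had 14.36 and 13.65 (-0.07, -0.15 to 0.0043), and it overlaps Nek6, which had 866 and 512 counts. Psmb1 and Psmb2 stood at -0.05 and -0.09.

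The value of Psmb5 rests on how its reads were split from a pseudogene. Of its windows, 57.1% are also in other genes, and the processed pseudogene Gm3375 was listed at 737 counts in PBS and 751 in SJMHE1, nearly as many as Psmb5 itself. The summed counts of Psmb5 and Gm3375, on the same scale, gave a log2 ratio of 0.04 (-0.06 to 0.15), nearer to 0 than that of Psmb5 alone. Psmb3 shares 55.8% of its windows with other genes.

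The immunoproteasome subunits stood at an FPKM of 15.06 to 36.37 in PBS, within the range of the constitutive beta subunits (14.00 to 38.60). Psmb8, which replaces Psmb5, had 36.37 in PBS and 36.27 in SJMHE1 (-0.00, -0.05 to 0.04, or 0.08 with equal FPKM sums). Psmb9, which replaces Psmb6, had 15.06 and 16.03 (0.09, 0.02 to 0.16), and it overlaps Tap1 (31.76 and 33.82, log2 ratio 0.09). Psmb10, which replaces Psmb7, had 23.07 and 27.17 (0.24, 0.15 to 0.32), the second highest ratio of all members. The median of the 3 was 0.09, or 0.17 with equal FPKM sums, where that of all genes was 0.07. The counting intervals of Psmb9 and Psmb10 lay above 0, as did 31% of those of all genes. The FPKM of the 3 genes summed to 74.5 in PBS and 79.5 in SJMHE1, and that of Psmb5, Psmb6 and Psmb7 to 48.9 and 48.4.

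**Figure D4:**
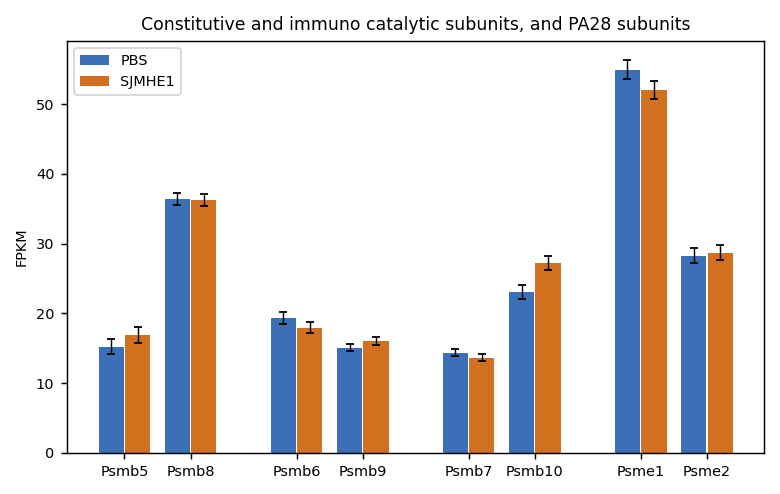
FPKM of each constitutive catalytic subunit beside the immunoproteasome subunit that replaces it, and of the PA28 subunits Psme1 and Psme2, in the PBS (blue) and SJMHE1 (orange) libraries, with 95% counting intervals. Psmb10 stands at 23.07 and 27.17 and Psmb8 at 36.37 and 36.27. The bars of Psme2 leave out its near copy Psme2b, and those of Psmb5 leave out Gm3375.

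The ratio of each immuno subunit to its constitutive partner is free of scaling when compared between libraries. Psmb10 to Psmb7 was 1.61 in PBS and 1.99 in SJMHE1, a log2 change of 0.31 (0.20 to 0.42). Psmb9 to Psmb6 was 0.779 and 0.893, a change of 0.20 (0.08 to 0.31). Psmb8 to Psmb5 was 2.39 and 2.16, a change of -0.15 with an interval that held 0 (-0.30 to 0.0036), and with the counts of Gm3375 added to Psmb5 the change was -0.05 (-0.17 to 0.06). Such changes were not computed over pairs drawn from all genes, so no background stands beside these intervals. Psmb7 overlaps Nek6 (866 and 512 counts), and Psmb9 overlaps Tap1 (9549 and 10764 counts). Whether the immuno subunit exceeds its partner in level depends on the length used. With principal transcripts, Psmb10 to Psmb7 was 0.708 and 0.878, on the other side of 1, Psmb9 to Psmb6 was 0.899 and 1.03, and Psmb8 to Psmb5 was 4.96 and 4.48.

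The 6 ATPases of the 19S base, which unfold substrates and open the gate of the core, had the lowest median of the groups. It was -0.18, or -0.095 with equal FPKM sums, with 5 below and 1 above 0. Of the 6 counting intervals, 4 lay below 0, as did 34.5% of those of all genes. The summed FPKM was 153.7 in PBS and 134.1 in SJMHE1. Psmc1 (Rpt2, chromosome 12, 100110154 to 100123405, plus strand) had the lowest ratio of any 20S or 19S subunit, with an FPKM of 35.71 in PBS and 27.30 in SJMHE1 (-0.39, -0.46 to -0.32) from 3790 and 3069 counts. Psmc3 had 29.16 and 25.10 (-0.22, -0.28 to -0.15). Psmc4 stood at 23.95 and 21.03 (-0.19) and Psmc5 at 36.39 and 32.40 (-0.17). The remaining ATPases differed less. Psmc6 had 18.48 and 17.84 (-0.05, -0.12 to 0.02), and Psmc2 10.02 and 10.40 (0.05, -0.02 to 0.13). Psmc1 shares 17.6% of its windows with other genes, chiefly the pseudogene Gm9575, which had 36 and 21 counts, too few to move its ratio (-0.40 with both summed). After rescaling to equal FPKM sums Psmc1 stood at -0.30, short of the small threshold.

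The other 19S subunits include scaffolds, ubiquitin receptors and a deubiquitinase. Of 11, 2 were above and 9 below 0, with a median of -0.06, which was 0.03 with equal FPKM sums. Psmd8, a lid subunit, had an FPKM of 27.76 in PBS and 23.39 in SJMHE1 (-0.25, -0.31 to -0.19). Psmd14, the deubiquitinase of the lid, had 19.55 and 16.98 (-0.20, -0.28 to -0.13). On the other side stood further lid subunits. Psmd12 had 15.90 and 17.67 (0.15, 0.07 to 0.23) and Psmd11 8.28 and 8.94 (0.11, 0.04 to 0.18). The large scaffold subunits Psmd1 (11.98 and 11.09, -0.11) and Psmd2 (35.20 and 33.85, -0.06) and the ubiquitin receptor Psmd4 (25.42 and 25.13, -0.02) lay in between. Psmd13 stood at -0.18, with 13.40 and 11.79, and it overlaps Gm15542, whose counts were 840 and 1908. Psmd3, Psmd6 and Psmd7 lay between -0.11 and -0.00.

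The chaperones that assemble the core and the 19S base had the widest spread, with an SD of 0.27 over 7 genes, and were among the least counted. Their median of -0.02 turned to between 0.00 and 0.06 under TMM, median of ratios, rescaling without the 50 most abundant genes and equal FPKM sums. Psmd9, a chaperone of the ATPase ring (chromosome 5, 123169413 to 123248527), had an FPKM of 1.96 in PBS and 1.44 in SJMHE1 (-0.44, -0.60 to -0.29), from 781 and 608 counts, and it overlaps 3 genes on the opposite strand. Psmg4, a chaperone of the alpha ring (chromosome 13, 34162964 to 34178173), had 13.40 and 10.27 (-0.38, -0.60 to -0.17), from 409 and 332 counts. They were the lowest of the group. With equal FPKM sums Psmg4 stood at -0.30, and with a pseudocount of 1 the ratio of Psmd9 was -0.28, short of the small threshold. Psmg1, whose product also helps to build the alpha ring, lay at the other end (chromosome 16, 95979933 to 95990960), with 5.79 and 7.21 (0.32, 0.13 to 0.50), from 428 and 564 counts. Its ratio of 0.316 stood just short of the threshold of 0.322, and passed it under 5 of the scalings. Psmd5, a chaperone of the base, had 5.54 and 6.10 (0.14, 0.06 to 0.22). Psmd10, Psmg2 and Psmg3 had intervals that held 0.

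Of the activators, 4 were above and 1 below 0. Their median was 0.02, or 0.11 with equal FPKM sums, where that of all genes was 0.07. Psme4, which encodes PA200, had an FPKM of 10.66 in PBS and 11.90 in SJMHE1 (0.16, 0.10 to 0.21). Psme2b had 68.70 and 73.76 (0.10, 0.03 to 0.17), and it is overlapped on the same strand by 9930111J21Rik1, which had 22.49 and 37.51. Psme2, the beta subunit of PA28, had 28.26 and 28.72 (0.02, -0.05 to 0.10), and shares 59.3% of its windows with other genes, while Psme2b shares 69.3%. Their counts summed to 5897 in PBS and 6535 in SJMHE1, which, divided by the library totals, gave a log2 ratio of 0.06 (0.01 to 0.11). Psme3, which encodes PA28 gamma, had 41.33 and 41.94 (0.02), and Psme1, the alpha subunit of PA28, 54.95 and 52.03 (-0.08, -0.13 to -0.03). Psme1 turned to 0.00 with equal FPKM sums. The ratio of Psme1 to Psme2 was 1.94 in PBS and 1.81 in SJMHE1, a log2 change of -0.10 (-0.19 to -0.01). Psme2 is taken alone here, so this ratio and its change rest on how reads were split from Psme2b. Psme1 had 6666 and 6682 counts, against 5897 and 6535 for Psme2 and Psme2b summed.

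The genes around the proteasome were taken from a list of 34 ubiquitin genes, shuttles, regulators and partners of the proteasome, of which 32 passed the filter. Their median was -0.02 (0.06 with equal FPKM sums), with 13 above and 19 below 0. Past 0.32, 3 were higher and 1 lower, where 13.3% of all genes were higher and 16.5% lower. The polyubiquitin gene Ubb had an FPKM of 522.1 in PBS and 657.8 in SJMHE1 (0.33), and Rps27a, which encodes ubiquitin fused to a ribosomal protein, had 260.9 and 226.0 (-0.21). Uba6, an E1 enzyme, had 3.20 and 4.24 (0.41). At the lower end, Zfand5, whose product stimulates the 26S proteasome, had 14.02 and 10.92 (-0.36), the proteasome inhibitor Psmf1 5.06 and 4.24 (-0.26) and the 19S-bound thioredoxin-like Txnl1 7.09 and 5.98 (-0.25). Nfe2l1, which encodes Nrf1, the factor that drives proteasome genes when proteasomes fail, had 22.04 and 24.18 (0.13), and the chaperone Pomp 8.96 and 8.13 (-0.14).

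Genes of MHC class I presentation, downstream of the proteasome, had a median of 0.12 over 14, with 10 above 0. Past 0.32 were 5, all higher, where 13.3% of all genes were higher and 16.5% lower. Among the higher ones were Canx (44.16 and 64.03, 0.54) and Calr (148.1 and 194.2, 0.39), chaperones of the endoplasmic reticulum. The lowest were Tap2 (30.87 and 27.72, -0.16), Irf1 (29.29 and 27.11, -0.11) and Tapbpl (12.70 and 12.66, -0.00). Beside these, the 18 heat shock genes had a median of 1.003, with 16 higher past 0.32, against 13.3% of all genes. Past 2-fold were 9 of them, against 6% of all genes in either direction and 0 of 47 proteasome genes. At the low end stood Hspa4 (0.03), Hsf1 (0.11) and Hsp90ab1 (0.63). At the high end stood Hspb1 (2.44), Hspa1a (3.39) and Hspa1b (3.60).

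**Figure D5:**
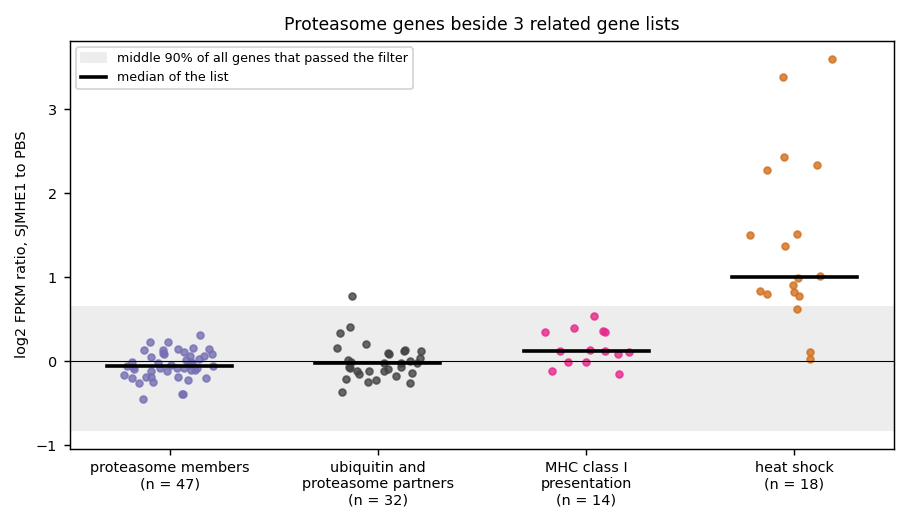
Log2 ratio of FPKM, SJMHE1 to PBS, for each gene that passed the filter in the proteasome members and in 3 lists, with a bar at the median of each and a grey band for the middle 90% of all 12433 genes. The 47 proteasome genes lie around -0.05 inside the band, and the 18 heat shock genes lie around 1.003.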

How the data were processed

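RNA of B cells sorted from spleen was sequenced after removal of rRNA, with 1 pooled library per group. The authors deposited, per gene, whole-number read counts that are not normalized, and FPKM values rounded to 2 decimals. The submitters' processing notes name bcl2fastq 2.0, HISAT2, StringTie, DESeq2, limma and mm10 without their roles. A further 2 columns of values have names that fit none of the samples, and they were not used, so no comparison with Control was made. The reference is that of C57BL/6J and the mice were BALB/c.

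The log2 ratio of FPKM was taken without a pseudocount over genes that reached an FPKM of 1 in either library and were at 0 in neither. Counting intervals are at the 95% level, and the calculation was tested on simulated data. The exon lengths and windows of 50 bases are from GENCODE M21 and the promoters from RefSeq. Members and lists were chosen with earlier results of these data known. Values were given in full for the catalytic subunits, Psme1, Psme2, the 2 highest and 2 lowest ratios of each role and every member past a log2 ratio of 0.32, and for the 3 highest and 3 lowest of other lists, and further genes named were chosen after their values were seen. The values of some list genes are not reported here. Alternatives were pseudocounts, filters, scalings (TMM by edgeR 4.0.16 in R 4.3.3), lengths, and counts summed with copies. The scripts ran in Python 3.11.15 (matplotlib 3.10.9, scipy 1.17.1, pandas 2.3.3, numpy 2.4.6).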

Additional observations from a re-analysis of the deposited data

How the results depend on the processing

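No paired analysis was possible because both groups hold a single library. With pseudocounts of 0.1 or 1, no filter, an FPKM of at least 5, or CPM, no compared member changed sign. Without a filter 1 member, Psma8, was past 2-fold. With equal FPKM sums, which add 0.083 to every ratio, 13 members changed sign, 30 were above 0, 1 was higher and 1 lower past 0.32, and the median was 0.032 for the members, 0.0014 for alpha subunits, 0.17 for immunoproteasome subunits, -0.095 for ATPases, 0.027 for other 19S subunits and 0.11 for activators. After centring on the median, TMM, median of ratios or rescaling without the 50 most abundant genes, 2, 4, 5 and 4 members changed sign and 1 was higher past 0.32. The comparisons with Control were not run. The spread between mice is unknown, and depth limits Psma8 and Psmb11.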
